A study of Mus musculus with 14 samples.

Results

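Nidogens and laminins are secreted glycoproteins of the basement membrane, the sheet on which basal keratinocytes rest. Each laminin is a trimer of an alpha, a beta and a gamma chain, and nidogens link the laminin gamma chain encoded by Lamc1 to collagen IV and perlecan. In skin, the laminin that holds the products of Lama3 and Lamb3 anchors basal keratinocytes through integrins, and laminins with the Lama5 product lie beside it. The 8 genes described here, Nid1, Nid2, Lama3, Lama5, Lamb1, Lamb2, Lamb3 and Lamc1, were chosen by name, with earlier results of these data known. All 8 were found among the 27179 genes of the keratinocyte table and the 24411 genes of the epidermis table, and all 8 passed the filter on low counts in both.

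RNA came from newborn mice of a pair of genotypes, and all animals carried floxed exon 13 of the p63 gene on both alleles (Trp63-Ex13fl/fl). The controls had no Cre and are labelled p63alpha. The other animals carried KRT14-Cre, a recombinase driven by the promoter of a basal keratinocyte keratin, and are labelled p63beta, so the exon can be lost only in cells that have used that promoter. Keratinocytes isolated from newborn epidermis and grown at low calcium gave 3 libraries per genotype, and epidermis split from dermis with trypsin gave 4 libraries per genotype. Whether the libraries of a group are from different animals is not stated in the labels, and p-values therefore cover the spread among libraries, which may be technical.

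Keratinocyte libraries held between 20688027 and 30066041 counted read pairs, and the estimated counts of an epidermis library summed to between 21290068 and 44909629. Transcripts with exon 13 made up 80.8 to 85.5% of the Trp63 level in the 4 p63alpha epidermis libraries. In p63beta epidermis they made up 2.15 to 2.905% in libraries EP10, EP11 and EP12 and 11.7% in library KO2. Total Trp63 was 179 to 193 CPM (counts scaled to library size) in p63alpha keratinocytes and 343 to 390.5 in p63beta keratinocytes, an edgeR log2 fold change of 0.99 ± 0.09 (standard error, SE; adjusted p = 0.0297). That call was lost when any single keratinocyte library was left out (edgeR adjusted p 0.0661 to 0.307). Those fits called 1 to 4 of all genes, against 14 with all libraries. The authors' deposited DESeq2 table gives Trp63 in keratinocytes a log2 fold change of 0.93 (adjusted p = 1.66e-22). In epidermis the Trp63 ranges overlapped (log2 fold change 0.55 ± 0.26). The basal markers Krt5 and Krt14 were at 1769 CPM or more in every library of both systems. Krt15, the other basal marker, was at 0.809 to 6.19 CPM in cultured cells and at 427 to 2325 in epidermis. The suprabasal markers Krt1 and Krt10 were at 15 CPM or less in cultured cells and at 37523 or more in epidermis. Of the other suprabasal markers, Ivl was at 22.0 to 133 CPM in cultured cells and Lor and Flg at 5.87 or less. Keratinocyte p63beta library 3 stood apart by muscle transcripts: its heart muscle markers summed to 3207 CPM against 169 or less in the other 5 libraries. In epidermis, the column names of p63alpha library WT3 and p63beta library KO2 carry another tag than those of the other 6 libraries, and no source used here says what the tag stands for.

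Stretches of promoter are shown for Nid1, the nidogen that was not called, and for Lama5 and Lamb1, the laminin genes with the smallest p in keratinocytes after Nid2. They run from 250 to 151 bases before the start used by the promoter entry (RefSeq, GRCm38.p6), 5′ to 3′ on the strand of the gene. For Lama5 and Lamb1 that start is not the 5′ edge of the gene coordinates given below. Promoter entries were used for 5 of the 8 genes, and those of Nid2, Lama3 and Lamc1 are not reported here. Capitals mark a p53 family decamer in Nid1 and GGGCGG, a GC box, in Lama5.
Nid1, chr13:13437352-13437451, plus strand: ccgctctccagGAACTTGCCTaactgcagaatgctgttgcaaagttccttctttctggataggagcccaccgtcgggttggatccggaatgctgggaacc
Lama5, chr2:180226010-180226109, minus strand: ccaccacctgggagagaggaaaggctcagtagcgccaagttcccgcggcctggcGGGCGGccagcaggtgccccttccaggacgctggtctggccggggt
Lamb1, chr12:31265043-31265142, plus strand: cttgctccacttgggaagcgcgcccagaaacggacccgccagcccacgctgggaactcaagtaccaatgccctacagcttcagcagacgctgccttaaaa
In the whole 300-base entry, from 250 bases before to 50 after the start, the decamer occurred in Nid1 alone among the 5 genes, and it occurs in 8.356% of the 32851 entries of the table when both strands are searched. GGGCGG, also searched on both strands, occurs in 35.66% of entries and was found in those of Nid1, Lama5 and Lamb1. The entries of Nid1, Lama5 and Lamb1 were 64.7, 72.7 and 63.7% G and C, against a median of 52.67% over the table.

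Nid2, which encodes nidogen-2, was close to silent in both control systems and was strongly raised in p63beta in both. It lies on chromosome 14 from 19751257 to 19811787 (mm10, plus strand), with 21 annotated exon blocks. In p63alpha keratinocyte libraries 1, 2 and 3 it received 19, 16 and 21 read pairs, and in p63beta libraries 1, 2 and 3 it received 3563, 2488 and 2898. These are 0.790, 0.531 and 0.999 CPM against 126, 98.6 and 102 CPM. Every p63beta library lay far above every control library, and the mean rose 143-fold (log2 fold change 7.16 ± 0.24, edgeR adjusted p = 8.47e-04).

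In epidermis, Nid2 was at 2.53, 1.13, 1.97 and 2.66 CPM in p63alpha libraries EP07, EP08, WT3 and EP09. In p63beta libraries KO2, EP10, EP11 and EP12 it was at 149, 160, 136 and 180 CPM. The groups again did not overlap, and the mean rose 75.5-fold (log2 fold change 6.24 ± 0.28, edgeR adjusted p = 7.81e-06). The rise was as large within each tag: WT3 and KO2 differed by 6.24 on the log2 scale, and the means of the other 6 libraries by 6.24. In bulk RNA, a change in the number of cells of a type and a change in RNA per cell cannot be told apart.

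Nid2 was the only one of the 8 genes called (adjusted p under 0.05) in either system, that is 1 of 8 in each. Among all genes tested, 0.0941% were called higher in p63beta keratinocytes (13 of 13820) and 0.217% in p63beta epidermis (30 of 13796). Since the 8 genes were chosen with earlier results known, these counts describe them and carry no test. Nid2 kept its call when any single library was left out, with a log2 fold change of 6.92 to 7.37 in keratinocytes and 6.03 to 6.37 in epidermis. Without keratinocyte p63beta library 3 it was 7.19 ± 0.27.

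**Figure D1:**
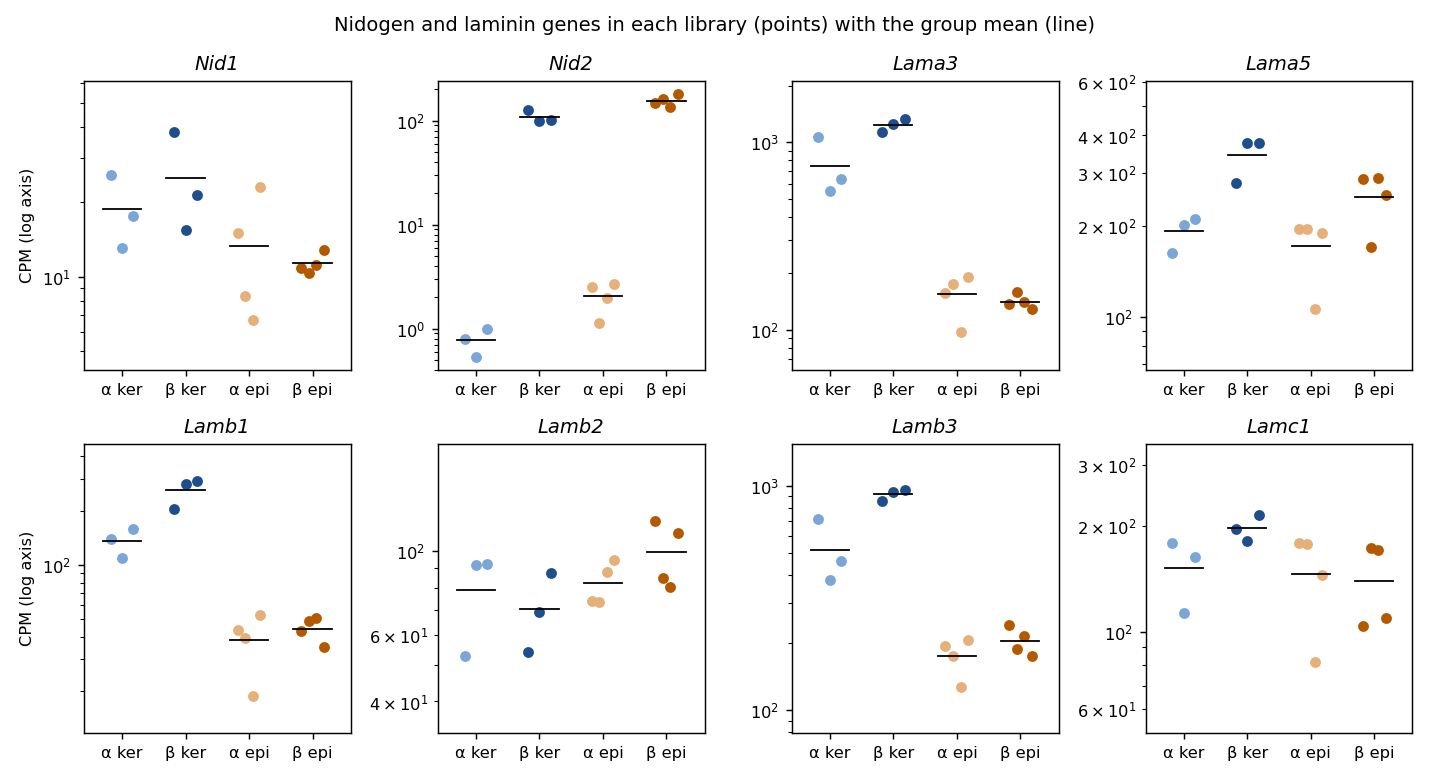
CPM of each of the 8 genes on a logarithmic vertical axis, with 1 point per library and a line at the group mean, for p63alpha and p63beta (α and β) keratinocytes (ker, 3 libraries each) and epidermis (epi, 4 libraries each). Nid2 stands at 2.66 CPM or less in all 7 control libraries and at 98.6 or more in all 7 p63beta libraries. Of the 6 laminin genes, 5 are higher in p63beta without overlap in keratinocytes (6.51% of all genes) and none in epidermis (1.88% of all genes). Groups separate more easily with 3 libraries each than with 4, so these counts do not compare the systems.

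Nid1, which encodes the more widespread nidogen, was called in neither system. It was at 25.8, 13.04 and 17.6 CPM in p63alpha keratinocyte libraries 1, 2 and 3 and at 38.4, 15.4 and 21.3 CPM in p63beta libraries 1, 2 and 3. The ranges overlapped, since p63beta library 2 lay below p63alpha libraries 1 and 3 (log2 fold change 0.41 ± 0.40, adjusted p = 0.928). Between libraries of the same number, Nid1 was 1.49, 1.18 and 1.21 times higher in p63beta for numbers 1, 2 and 3. With the replicate number in the edgeR fit as a block, Nid1 was still not called (0.37 ± 0.10, adjusted p = 0.263). In epidermis it was at 14.9, 8.39, 6.72 and 22.9 CPM in p63alpha libraries EP07, EP08, WT3 and EP09, and at 10.4 to 12.8 CPM in the p63beta libraries. All 4 p63beta libraries fell inside the control range (log2 fold change -0.23 ± 0.35). Nid1 lies on chromosome 13 from 13437602 to 13512275 on the plus strand.

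Compared per transcript length, the nidogens exchanged places. In keratinocytes the authors' FPKM (fragments scaled to gene length and library size) averaged 3.11 for Nid1 and 0.159 for Nid2 in p63alpha, and 4.16 and 22.2 in p63beta. Nid2 thus made up 3.65, 4.80 and 6.56% of the nidogen level in the p63alpha libraries and 80.3, 88.8 and 85.5% in the p63beta libraries. In epidermis the authors' TPM (transcripts scaled to a fixed total) gave a Nid2 share of 12.6 to 26.8% in p63alpha and 93.8 to 95.1% in p63beta. The sum of both nidogens relative to Lamc1, which encodes the chain that nidogens bind, was 0.145 to 0.188 in p63alpha and 0.860 to 1.25 in p63beta keratinocytes. In epidermis that ratio was 0.0699 to 0.229 in p63alpha and 1.34 to 2.76 in p63beta. These shares and ratios were formed after the values were seen and are given without a test.

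**Figure D2:**
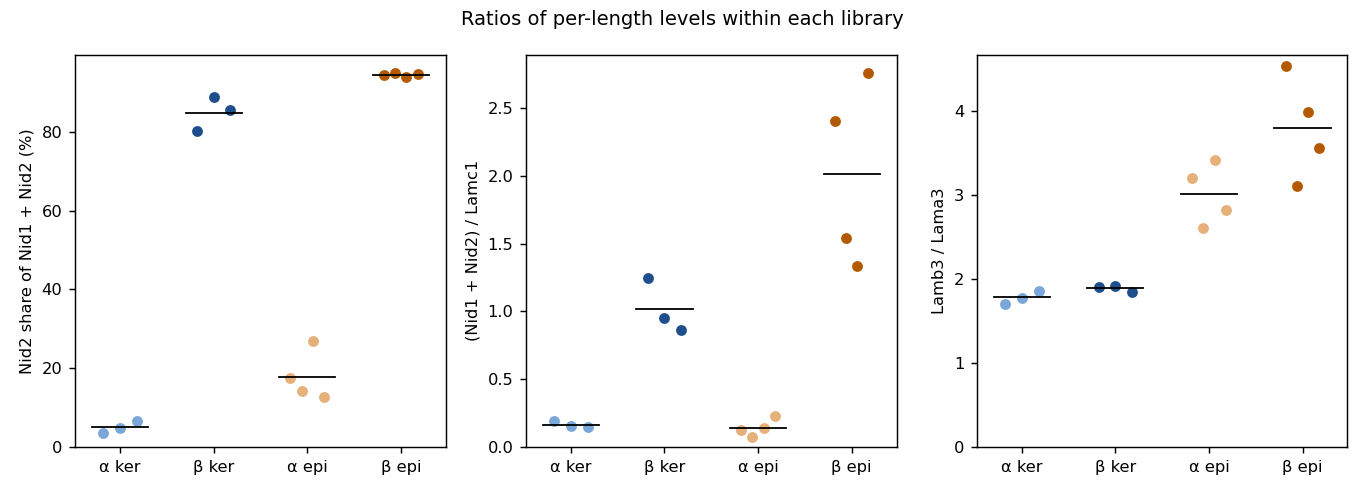
Ratios of per-length levels within each library (FPKM in keratinocytes, TPM in epidermis), 1 point per library with a line at the group mean. The Nid2 share of nidogen is 26.8% or less in every control library and 80.3% or more in every p63beta library, and the ratio of Lamb3 to Lama3 overlaps between genotypes in both systems.

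Most laminin genes stood higher in p63beta than in p63alpha keratinocytes, by less than Nid2 and without reaching the threshold. The log2 fold change was above 0 for 7 of the 8 genes, with a median of 0.77, against 49.7% of all genes tested and a median near 0. The 3 control and 3 p63beta libraries did not overlap for 6 of the 8 (Nid2, Lama3, Lama5, Lamb1, Lamb3 and Lamc1), against 6.51% of all genes. The count was 6 whichever library was left out, but leaving out a library can never lower such a count. These genes were picked with earlier results known, so the counts describe them and carry no test.

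Lama5 encodes the alpha chain of the laminins that neighbour the anchoring laminin of skin. Its gene lies on chromosome 2 from 180176373 to 180225904 on the minus strand. It was at 163, 203 and 212 CPM in p63alpha keratinocyte libraries 1, 2 and 3 and at 279, 379 and 378 CPM in p63beta libraries 1, 2 and 3. All 3 p63beta libraries exceeded all 3 controls, yet Lama5 was not called (log2 fold change 0.84 ± 0.16, adjusted p = 0.289). Lamb1, a beta chain partner of Lama5 (chromosome 12, 31265146 to 31329644, plus strand), was at 140, 110 and 158 CPM in p63alpha and at 205, 282 and 294 CPM in p63beta. It too was separated but not called (0.94 ± 0.19, adjusted p = 0.325).

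For Lama5, Lamb1 and Lamb3 the call depended on how the libraries were compared. Keratinocyte libraries of the same replicate number were taken as pairs by their deviations from the group means. The third pair (correlation 0.161) was no closer than p63alpha 3 with p63beta 2 (0.164). Lama5 was called once the replicate number entered the edgeR fit as a block (adjusted p = 0.0431, log2 fold change 0.84 ± 0.07), while Lamb1 was not (adjusted p = 0.144). That made 2 of 8 genes called with the block, against 0.232% of all genes called higher. Between libraries of the same number, Lama5 was 1.71, 1.87 and 1.79 times higher in p63beta for numbers 1, 2 and 3, the narrowest spread among the laminin genes that were higher for every number. Lamb1 was 1.46, 2.57 and 1.86 times higher. DESeq2 on the same counts called Nid2, Lama5, Lamb1 and Lamb3, 4 of 8, against 1.05% of all genes called higher. The authors' deposited table likewise has Nid2, Lama5 (adjusted p = 6.12e-04), Lamb1 (7.93e-04) and Lamb3 (0.0339) under 0.05 in keratinocytes, against 0.957% of its genes called higher.

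Which genes the blocked fit called depended on the pair left out. Without pair 1 it called Nid2, Lama3, Lama5, Lamb1 and Lamb3. Without pair 2 it called none of the 8 and none of all genes, with Nid2 at adjusted p = 0.0991 and Lama5 at 0.569. Without pair 3 it called Nid2 alone of the 8, with Lama5 at adjusted p = 0.0977.

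Lama3 and Lamb3, which encode the alpha and beta chains of the anchoring laminin, shared a pattern across libraries. Lama3 was at 1061, 548 and 636 CPM in p63alpha keratinocyte libraries 1, 2 and 3 and at 1139, 1248 and 1327 in p63beta libraries 1, 2 and 3 (log2 fold change 0.73 ± 0.25, adjusted p = 0.643). Lamb3 was at 709, 382 and 465 CPM in p63alpha and at 853, 936 and 962 in p63beta (0.82 ± 0.23, adjusted p = 0.523). In both genes p63alpha library 1 lay close to the p63beta range, and the difference was larger for numbers 2 and 3. Between libraries numbered 1 the ratio was 1.07 for Lama3 and 1.20 for Lamb3, whereas it was 2.28 and 2.45 for number 2 and 2.08 and 2.07 for number 3. Lamb3 lies on chromosome 1 from 193294353 to 193343878 on the plus strand.

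Per length, the ratio of Lamb3 to Lama3 was 1.71, 1.78 and 1.86 in p63alpha keratinocyte libraries 1, 2 and 3 and 1.91, 1.91 and 1.85 in p63beta libraries 1, 2 and 3, which overlap. In epidermis the ratio was 2.61 to 3.42 in p63alpha and 3.11 to 4.54 in p63beta, also with overlap. With 3 libraries against 3, an exact permutation test of such a ratio cannot go below p = 0.1, and the ratios were formed after the values were seen.

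Lamc1 encodes the gamma chain of most laminins outside the anchoring one. It was at 179, 113 and 164 CPM in p63alpha keratinocyte libraries 1, 2 and 3 and at 197, 182 and 216 in p63beta, just separated (log2 fold change 0.38 ± 0.18, adjusted p = 0.760). Its gene lies on chromosome 1 from 153218922 to 153332786 on the minus strand. Lamb2, an alternative beta chain (chromosome 9, 108479847 to 108490530, plus strand), was the one gene of the 8 with a negative estimate. It was at 52.8, 92.1 and 92.2 CPM in p63alpha and at 54.2, 68.9 and 87.5 CPM in p63beta, with overlapping ranges (-0.17 ± 0.27, adjusted p = 0.970).

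**Figure D3:**
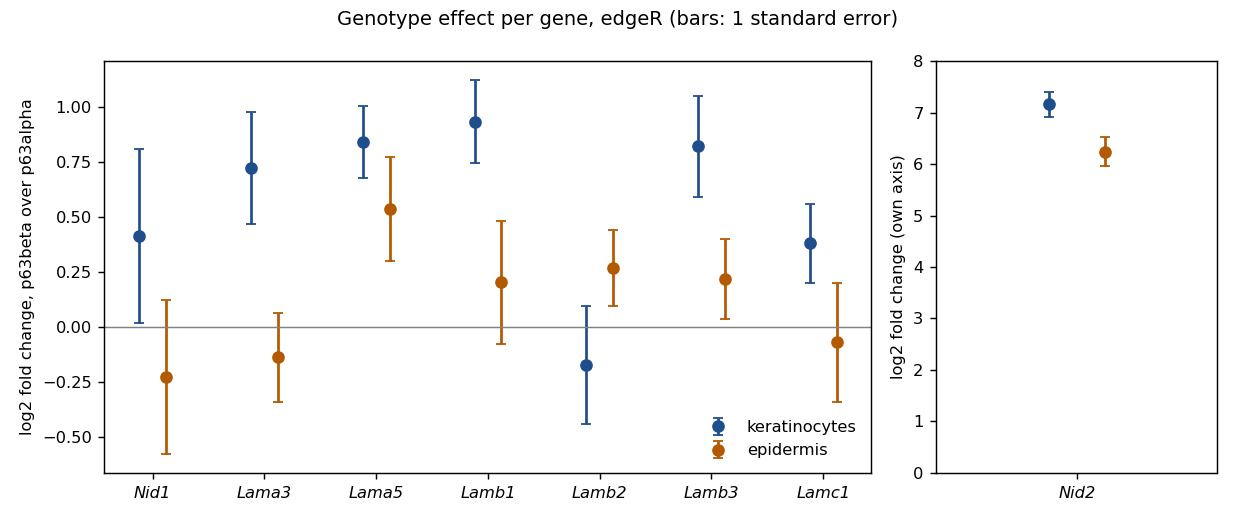
Log2 fold change of p63beta over p63alpha for the 8 genes in keratinocytes and epidermis, from edgeR, with bars of 1 standard error and Nid2 on an axis of its own. Lama3, Lama5, Lamb1 and Lamb3 lie between 0.73 and 0.94 in keratinocytes, and between -0.14 and 0.54 in epidermis.

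In keratinocytes the sums of endothelial, pericyte and suprabasal markers were higher in p63beta without overlap, and the sums of the other marker lists overlapped. The sum of endothelial markers was 4.95 to 10.8 CPM in p63alpha and 11.6 to 36.3 CPM in p63beta, and that of pericyte markers 18.5 to 27.6 and 30.6 to 45.5 CPM. Suprabasal markers summed to 37.4 to 91.0 CPM in p63alpha and 91.6 to 171 CPM in p63beta. Within these lists Pecam1, Cspg4 and Ivl alone separated by genotype, and the other markers overlapped. Pecam1 was at 1.76 to 4.95 CPM in p63alpha and 7.45 to 16.2 CPM in p63beta. Cspg4 was at 17.3 to 25.1 and 29.8 to 34.2 CPM, and Ivl at 22.0 to 63.7 and 78.9 to 133 CPM. The sums of fibroblast markers overlapped (80.8 to 199 and 72.6 to 257 CPM). Of the 8 fibroblast markers, 6 were at their highest in p63beta library 3, as were all 3 pericyte markers. Dcn was at 51.7 CPM there against 2.69 or less in the other 5 libraries, while Col1a1 and Thy1 were highest elsewhere. In p63beta library 3 all 7 heart muscle markers and 5 of 6 endothelial markers were at their highest of the 6 libraries, and in the controls the 6 endothelial markers ran from 0 (Cldn5) to 5.28 CPM (Kdr). Without that library Lama3, Lama5, Lamb1 and Lamb3 gave log2 fold changes of 0.67, 0.76, 0.83 and 0.78. The part of these cells in the other differences was not tested.

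In epidermis the laminin genes did not separate by genotype. The log2 fold change was above 0 for 5 of the 8 genes with a median of 0.21, and only Nid2 had groups without overlap (1 of 8, against 1.88% of all genes higher without overlap). Lama5 had the largest difference after Nid2, at 196, 196, 107 and 190 CPM in p63alpha libraries EP07, EP08, WT3 and EP09 and at 288, 171, 288 and 254 CPM in p63beta libraries KO2, EP10, EP11 and EP12. WT3 lay far below the other controls, and p63beta library EP10 lay below 3 of the 4 controls (log2 fold change 0.54 ± 0.24, adjusted p = 0.9999). When EP10 was left out, Lama5 was without overlap as well as Nid2. Without WT3 the Lama5 value was 0.37 ± 0.20.

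Lamb1 in epidermis was at 43.5, 39.2, 18.8 and 52.96 CPM in p63alpha libraries EP07, EP08, WT3 and EP09 and at 35.4 to 50.8 CPM in p63beta (log2 fold change 0.20 ± 0.28). Lamb3 was at 127 to 206 CPM in p63alpha and 175 to 239 in p63beta (0.22 ± 0.18), and Lama3 at 97.3 to 191 and 129 to 158 (-0.14 ± 0.20). Lamb2 was at 73.1 to 94.7 CPM in p63alpha and 80.2 to 120 in p63beta (0.27 ± 0.17), and Lamc1 at 82.0 to 179 and 104 to 173 (-0.07 ± 0.27). All of these had an adjusted p of 0.9999. DESeq2 called Nid2 alone among the 8 in epidermis, against 0.788% of all genes called higher, and in the authors' deposited table Nid2 alone passed, against 0.678% of its genes.

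WT3 held the lowest value of the 4 controls for Nid1, Lama3, Lama5, Lamb1, Lamb3 and Lamc1. It shares its tag with KO2 alone, so the tag and a low value of WT3 itself cannot be told apart. From WT3 to KO2, Lama5 was 2.69 times, Lamb1 2.29 times and Lamb3 1.88 times higher. Among the other 6 libraries the log2 difference of the group means was 0.29 for Lama5, -0.01 for Lamb1 and 0.01 for Lamb3. WT3 also had the highest sum of suprabasal markers, 160181 CPM against 81651 to 139716 in the other 7 libraries, and a basal sum of 8259 CPM against 6477 to 17493. Their part in the laminin levels was not tested. Between genotypes in epidermis, melanocyte markers summed to 112 to 252 CPM in p63alpha and 305 to 459 in p63beta, fibroblast markers to 481 to 518 and 301 to 451 CPM, and skeletal muscle markers to 0.161 to 0.928 and 1.32 to 7.61 CPM. Endothelial markers summed to 1.75 CPM or less in every epidermis library and overlapped between genotypes, and single endothelial markers ran from 0 (Emcn in all 4 controls) to 1.26 CPM (Pecam1). The part of these cells in the Nid2 difference was not tested.

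At transcript level each of the 8 genes had 1 tested RefSeq transcript in epidermis, so no change between isoforms could be seen. The Nid2 transcript was called (log2 fold change 6.23 ± 0.30, edgeR adjusted p = 2.90e-04), and the other 7 were not. Across all transcripts tested, 0.0438% were called higher (8 of 18270).

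The genotype effects in keratinocytes and epidermis were set against each other by an interaction term, fitted with edgeR over the 14 libraries together. None of the 8 genes and none of the 14657 tested passed an adjusted p of 0.05. At an unadjusted p under 0.05 there were 2 of the 8, against 4.22% of all genes (618). The estimate, epidermis minus keratinocytes, was -0.90 ± 0.37 for Nid2 (unadjusted p = 0.0286) and -0.85 ± 0.33 for Lama3 (unadjusted p = 0.0230), each with an adjusted p of 0.9999. The other estimates were between -0.72 for Lamb1 and 0.46 for Lamb2. The separation of laminin genes seen in keratinocytes is therefore not shown to differ from epidermis by this test.

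Per length, Lamb3 was the most abundant of the 8 genes in each of the 4 groups. In p63alpha keratinocytes it averaged 128 FPKM, followed by Lama3 at 72.2 FPKM, and these overlapped. Lamb1, Lamc1, Lama5 and Lamb2 followed at 23.6, 19.9, 16.9 and 14.1 FPKM, each overlapping the next. Nid1 at 3.11 and Nid2 at 0.159 FPKM were separate from all above. In p63beta keratinocytes Lamb3 averaged 225 FPKM and Lama3 119 FPKM, now apart, and Nid2 at 22.2 FPKM had moved to sixth place, overlapping Lamc1 at 25.9.

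In p63alpha epidermis Lamb3 averaged 74.8 TPM, apart from Lamc1, Lama5, Lama3 and Lamb2 at 32.7, 25.6, 25.6 and 24.7 TPM. Lamb1 followed at 11.6, Nid1 at 3.79 and Nid2 at 0.717 TPM. In p63beta epidermis Nid2 at 50.6 TPM was second only to Lamb3 at 79.2 TPM, and it overlapped Lama5 at 33.7 TPM. FPKM and TPM were made by different routes, so levels are not compared across the systems.

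**Figure D4:**
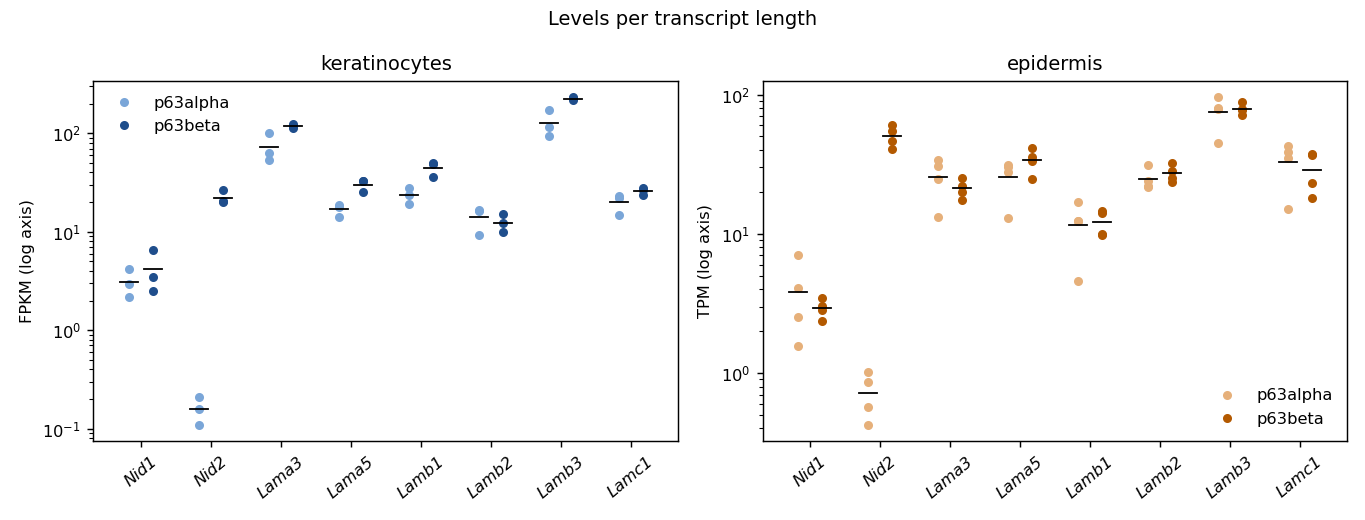
Levels per transcript length on a logarithmic axis, FPKM in keratinocytes and TPM in epidermis, with 1 point per library and a line at the group mean. Nid2 is lowest of the 8 genes in both control groups, sixth in p63beta keratinocytes and second in p63beta epidermis, where its mean is 50.6 TPM.

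The share that each alpha or beta chain held of its class overlapped between genotypes. Lama3 made up 73.7 to 86.6% of the alpha chain level in p63alpha and 77.8 to 80.3% in p63beta keratinocytes, and Lama5 12.1 to 24.8% and 17.9 to 21.5%. In epidermis Lama3 and Lama5 held near equal parts in p63alpha, 45.4 to 50.7% and 45.5 to 51.2%, while in p63beta Lama5 held 48.0 to 63.8% and Lama3 33.8 to 49.0%, with overlap. Lamb3 held 72.4 to 83.9% of the beta chains in p63alpha keratinocytes and 62.6 to 69.9% in p63alpha epidermis.

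Of laminin chain and related genes outside the 8, 5 (Lama1, Lama2, Lama4, Lamc3 and the laminin-like netrin Ntn4) were tested in both systems and none was called in either by edgeR or DESeq2, with 1 at an unadjusted p under 0.05 in keratinocytes and 0 in epidermis (6.85 and 4.64% of all genes in these systems). Their median log2 fold change was -0.06 in keratinocytes and 0.0031 in epidermis. Lama2, the alpha chain of muscle laminin, was at 0.790 to 1.28 CPM in p63alpha and 1.41 to 11.2 CPM in p63beta keratinocytes, with the highest value in the p63beta library rich in muscle markers (log2 fold change 2.35 ± 0.85, adjusted p = 0.658). Without that library it was 0.86 ± 0.44. Lama1, Lama4 and Lamc3 stayed at 12.8 CPM or less in every library, and Ntn4 at 12.5 CPM or less, with overlap between genotypes in both systems.

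Of 11 laminin receptor genes none was called in either system by edgeR, with 3 at an unadjusted p under 0.05 in keratinocytes and 1 in epidermis, against 6.85 and 4.64% of all genes. DESeq2 called Itga3 and Dag1 higher in keratinocytes, 2 of 11 against 1.05% of all genes, and none in epidermis. In keratinocytes 10 of 11 had a log2 fold change above 0 (median 0.35). Itga3, the integrin alpha chain that pairs with beta-1 integrin to bind laminins, was at 743 to 1063 CPM in p63alpha and 1261 to 1579 CPM in p63beta keratinocytes (0.66 ± 0.17, adjusted p = 0.448). Dag1, which encodes dystroglycan, was at 246 to 270 and 294 to 367 CPM (0.42 ± 0.11, adjusted p = 0.470). In epidermis 7 of 11 were above 0 (median 0.04), and the smallest p belonged to Itga7 (1.89 ± 0.67) and Cd151 (0.34 ± 0.20), neither called and both overlapping.

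Among 17 basement membrane partners, 16 were tested in keratinocytes and 13 had a log2 fold change above 0 (median 0.44). None was called by edgeR, 7 of 16 had an unadjusted p under 0.05 (6.85% of all genes), and DESeq2 called 2 higher, Col18a1 and Fras1 (1.05% of all genes). Col18a1, a basement membrane collagen, was at 702 to 959 CPM in p63alpha and 1175 to 1373 CPM in p63beta (0.67 ± 0.14, adjusted p = 0.360), and Fras1, a protein of the dermal-epidermal junction, at 8.44 to 10.6 and 12.9 to 23.3 CPM (1.02 ± 0.25, adjusted p = 0.447). In epidermis edgeR called none of 17, with 3 at an unadjusted p under 0.05 (4.64% of all genes) and a median of -0.08, and DESeq2 called Tinagl1 higher (0.788% of all genes). Tinagl1, a matrix protein that binds laminin, was at 5.98 to 16.7 CPM in p63alpha and 21.6 to 51.0 CPM in p63beta epidermis (1.498 ± 0.37, adjusted p = 0.284), and Fbln2, a fibulin, at 18.4 to 36.0 and 12.7 to 22.1 CPM (-0.86 ± 0.26, adjusted p = 0.589).

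Proteases that process or cut laminins and nidogens gave 12 tested genes of 15 in each system, with medians of -0.01 in keratinocytes and -0.00 in epidermis. None was called by edgeR and 1 in each system had an unadjusted p under 0.05 (6.85 and 4.64% of all genes), while DESeq2 called Htra1 higher in epidermis (0.788% of all genes) and none in keratinocytes. Bmp1, which trims laminin chains, was at 78.8 to 123 CPM in p63alpha and 137 to 167 CPM in p63beta keratinocytes (0.62 ± 0.18, adjusted p = 0.534), and its relative Tll1 overlapped (0.53 ± 0.27). In epidermis Htra1, a secreted serine protease, was at 45.1 to 75.5 and 92.9 to 113 CPM (0.72 ± 0.17, adjusted p = 0.244), and Plau, urokinase, at 25.2 to 59.2 and 11.1 to 37.5 CPM (-0.83 ± 0.38).

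The genes whose profile over the 14 libraries lay nearest to that of Nid2 were sought among 12603 genes, by the root mean square difference of log2 CPM after subtracting the control mean of each system. They were Fut9 at 1.32, Cpz at 1.59, Sncg at 1.66, Grm4 at 2.06 and Mctp1 at 2.12, against a median of 4.69 over the other genes. That median follows from the rise of Nid2 itself, since an unchanged gene lies far from Nid2 by this measure. By edgeR all of the named genes were called in epidermis, where 0.217% of all genes were called higher. They were picked for a rise like that of Nid2 in these same libraries. Their calls therefore follow from the choice and carry no test. In keratinocytes Cpz, Sncg and Mctp1 were not called (edgeR adjusted p 0.0827, 0.0977 and 0.292). Fut9, a fucosyltransferase, averaged 0.137 CPM in p63alpha and 7.35 CPM in p63beta keratinocytes, and 0.126 and 6.12 CPM in epidermis. Sncg, gamma-synuclein, averaged 16.1 and 255 CPM in keratinocytes and 0.538 and 26.4 CPM in epidermis.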

How the data were processed

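The keratinocyte files the authors deposited hold counts of read pairs, made over RefSeq genes with featureCounts 1.5.2 per the file headers, and FPKM. For epidermis the authors deposited estimated counts and TPM per gene and transcript, with salmon named in the submitters' processing notes. The authors' result tables, from DESeq2, hold a log2 fold change and p-value per gene, and their 14 per-library columns were not used. The build was mm10. Versions of salmon and the authors' DESeq2 are not given in the sources used here. Epidermis columns read WT or KO, words that the keratinocyte count header ties to p63alpha and p63beta.

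Each system was fitted with edgeR 4.0.16 in R 4.3.3 (TMM, filterByExpr by group, robust quasi-likelihood test, Benjamini-Hochberg adjustment over all genes, called under 0.05). Estimated counts were rounded. A joint fit used genes matched by Entrez ID. Same-numbered keratinocyte libraries deviated together (r = 0.579, 0.495 and 0.161 over 12629 genes, each above the 0.1 asked for), so the numbers were taken to pair them, by this check of the data and not by the labels. Libraries of different numbers gave -0.510 to 0.164, so the third pair is no closer than alpha 3 with beta 2. The scripts were tested on simulated data. Alternatives used RLE, no filter, single libraries left out, DESeq2 1.42.0, limma 3.58.1 on log2 values (FPKM, TPM; pseudocount 1 or 0.1), a replicate block and a tag term.

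The 8 genes and the other lists were chosen with earlier results of these data known. Genes outside the 8 were named by rule: Trp63, 5 other laminin chain genes (1 more is not reported here), the 2 smallest p per list and system, and the 5 profiles nearest to Nid2. Single marker genes (Krt1, Krt5, Krt10, Krt14, Krt15, Ivl, Lor, Flg, Cspg4, Cldn5, Kdr, Emcn, Pecam1, Dcn, Col1a1 and Thy1) lie outside it and were picked after their values were seen.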

Additional observations from a re-analysis of the deposited data

Results flagged for a closer look

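Lama5 was at 106.8 CPM in p63alpha epidermis library WT3, while the other 3 control libraries lay between 189.6 and 196.3 CPM. That gap was 0.925 of the range of the group, above Dixon's limit for 4 libraries. Of 16 groups of 4 libraries looked at, this was the only one past the limit, and chance alone puts about 1 in 20 groups past it. WT3 also had the highest suprabasal marker sum (160181 CPM), and its part in the Lama5 value was not tested.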

How the results depend on the processing

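Nid2 kept its direction and call in keratinocytes and epidermis under RLE size factors, no filter, DESeq2, limma and the tag term, and in every fit with 1 library left out. With all libraries or 1 tag its log2 fold change was 4.32 to 7.17 in keratinocytes and 4.91 to 6.24 in epidermis, lowest with limma at a pseudocount of 1, and with 1 library left out it was 6.92 to 7.37 and 6.03 to 6.37. The count of the 8 genes called in keratinocytes was 1, and it was 4 with DESeq2 and 2 with the replicate block. With 1 library left out it stayed at 1, and with the replicate block and 1 pair left out, an alternative chosen after seeing the data, it ran from 0 to 5. The replicate block changed no other call among the 8. All genes called numbered 14 in keratinocytes, 223 with DESeq2, 37 with the replicate block, 1 to 4 with 1 library left out, and 585, 0 and 1 with the block without pairs 1, 2 and 3. In epidermis they numbered 32, 141 with DESeq2, 8 in the 6 libraries of 1 tag and 10 to 28 with 1 library left out. Transcripts called numbered 10, and 5 to 11 with 1 library left out. The cause of these shifts was not tested. No paired analysis was possible in epidermis because its columns carry no replicate numbers.

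Some estimates that were not called changed sign. In the 6 epidermis libraries of 1 tag alone, Lamb1 was at -0.013, Lama1 at -0.21 and Ntn4 at -0.11, and Lama1 was at -0.028 and -0.025 with limma at a pseudocount of 1 and 0.1. With 1 library or pair left out, keratinocyte ranges were -0.035 to 0.69 for Nid1, -0.84 to 1.40 for Lama1, -0.55 to 0.33 for Lama4 and -1.06 to 0.45 for Lamc3. Epidermis ranges were -0.45 to 0.17 for Nid1, -0.026 to 0.39 for Lamb1, -0.27 to 0.046 for Lamc1, -0.24 to 0.17 for Lama1 and -1.15 to 0.062 for Lamc3. For epidermis transcripts they were -0.030 to 0.39 for Lamb1, -0.46 to 0.17 for Nid1 and -0.27 to 0.040 for Lamc1. None of these was called in the fit of all libraries. For genes near silence in controls, such as Nid2 at 16 to 21 read pairs per keratinocyte library, the size of a fold rests on few reads.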
